A study of Mus musculus with 8 samples.

Results

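The 9 genes described here belong to the interleukin-1 (IL-1) and tumour necrosis factor (TNF) inflammatory pathways: Il1b, Il1rn, Il1rl1, Il18, Il6, Tnf, Nlrp3, Tnfaip3 and Nfkb1. They were taken by symbol from the gene rows of 8 single-nucleus RNA count matrices, so they are 9 of 56749 annotated features, and each symbol matched a single row. No measured value entered their choice, although they were picked with earlier results of these libraries known. Nuclei came from snap-frozen visceral white adipose tissue, the abdominal fat depot, of 8 mice. Every mouse was labelled as carrying 1 modified p21 allele (p21, or Cdkn1a, is a cell-cycle inhibitor induced by stress and senescence) that holds the red fluorescent reporter mCherry. The 4 groups held 2 mice each. The standard-diet mice (mCherry SD in the plots; rep144 and rep146) were p21+/mCherry on Standard diet, and the high-fat controls (mCherry HFD in the plots; rep128 and rep129) were the same genotype on High Fat diet. The Tert mice (Tert HFD in the plots; rep134 and rep136) were p21+/mCherry-Tert, and the TertCi mice (TertCi HFD in the plots; rep138 and rep140) p21+/mCherry-TertCi, both on High Fat diet. Within each group values are given in that order of mice. The product of Tert is the protein part of telomerase that copies telomere repeats. The labels do not say what Ci stands for, nor the age of the mice or the length of the diet. The series' own design text speaks of the stromal vascular fraction and of p21+/- mice, while the sample labels name whole tissue and p21+/mCherry; the sample labels were followed. The diet comparison sets the high-fat controls against the standard-diet mice, and the Tert and TertCi comparisons set each of those groups against the high-fat controls, so all 3 share the high-fat controls.

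IL-1β, TNF and IL-6 are secreted cytokines that immune cells release in inflamed tissue. Binding of IL-1β or TNF to its receptor activates the transcription factor NF-κB, which switches on further cytokine genes along with inhibitors that end the response. IL-1β and IL-18 are made as inactive precursors and are cut by caspase-1 once the NLRP3 inflammasome has assembled. In obesity, macrophages accumulate in visceral fat, surround dying adipocytes and are a main source of these cytokines there.

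The libraries held 23378488 to 139749876 unique molecular identifiers (UMIs, 1 per captured RNA molecule), and 30209 nuclei were kept after removal of doublets, from 1978 to 7433 per mouse. Of the high-fat controls, rep128 had the deepest library and the most nuclei and held all 229 nuclei named epithelial-like. Of the Tert mice, rep136 had the shallowest library, at a median of 1682 UMIs per nucleus against 2966 to 7133.5 in the other 7 mice, and 16.2% of its nuclei (516) could not be named. Of 30088 distinct nuclear barcodes, 119 occurred in more than 1 library. The labels could not be checked through the transgenes. Tert stood at 3.82 and 3.88 UMIs per 1000000 UMIs (CPM) in the high-fat controls against 2.35 and 1.44 in the Tert mice and 2.49 and 2.76 in the TertCi mice, and mCherry had 0 to 10 UMIs per library, so groups are named as labelled. Whether the gene row counts the inserted Tert sequence is not known. Tissue was processed in batches of 2 mice in random order, per the labels' protocol, but which mice shared a batch is not recorded, so no batch term could be fitted. Nuclei of a mouse are not replicates. Counts were therefore summed per mouse, n is 2 mice per group (1 where fewer than 20 nuclei of a class left a mouse out), and p-values measure the spread between mice.

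Nuclei were grouped into classes named from marker genes, and 15 of 35 clusters (31.4% of nuclei) carried markers of more than 1 class and are called mixed. Macrophage-like nuclei were 28.5% of all nuclei and 22.1% of their UMIs. They held 66.6% of the UMIs of Il1rn (1633 in all nuclei), 62.5% of Tnf (893), 54.1% of Nlrp3 (833), 49.7% of Il1rl1 (4083), 46.6% of Il1b (103), 35.3% of Tnfaip3 (2702), 29.5% of Il6 (105), 27.9% of Il18 (5329) and 27.3% of Nfkb1 (51048). These shares are pooled over mice that differ in their macrophage-like nuclei: 1265 and 200 of the Il1rn UMIs and 656 and 85 of the Tnf UMIs were from the high-fat controls, where macrophage-like nuclei were 49.8% and 47.8% of nuclei. They do not rank the genes by class. Il1rl1 had its highest median over the 8 mice, 49.3 CPM within the class, in macrophage-like nuclei (27.0 to 85.7). Its medians in the mixed progenitor-led (41.1 CPM, 15.7 to 84.8) and mixed T and NK-led clusters (36.0 CPM, 28.4 to 78.4) lay inside that range. Il18 had its highest median, 50.7 CPM (27.1 to 78.6), in the mixed mesothelial-led clusters, and 38.9 CPM (27.7 to 45.2) in macrophage-like nuclei, and these ranges overlapped. Nfkb1 had 294 CPM in macrophage-like, 290 in progenitor-like and 151 in adipocyte-like nuclei. Il1b and Il6 stayed under 2 CPM at the median in every class.

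**Figure D1:**
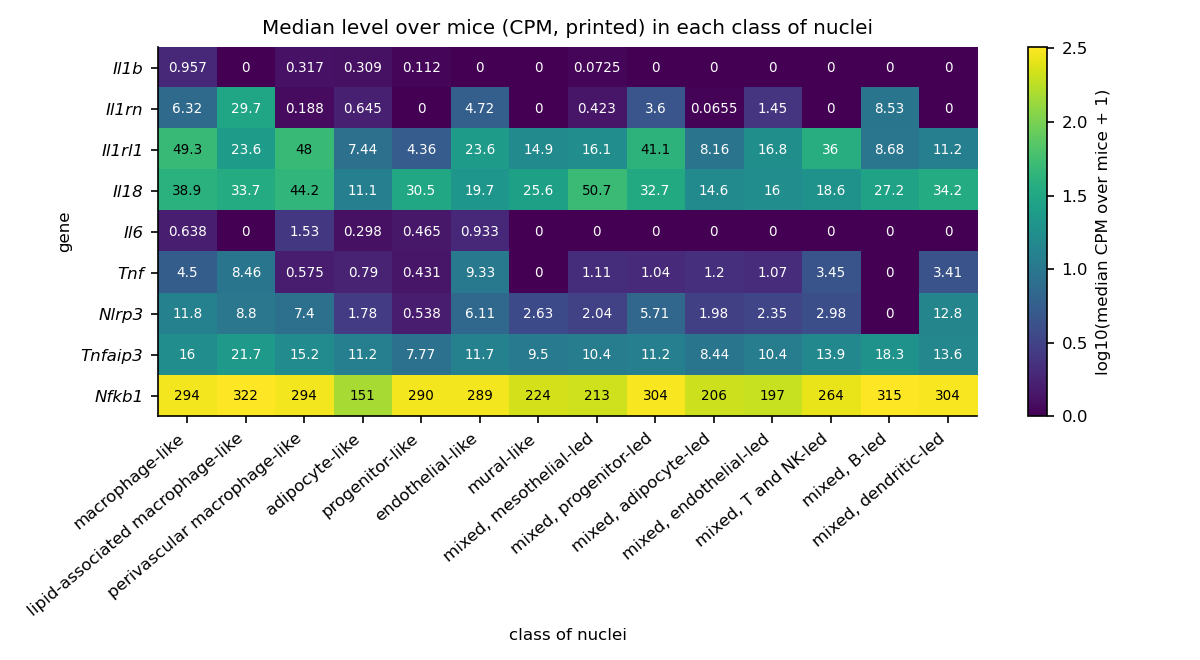
Median level over mice of each of the 9 genes (rows) in each class of nuclei (columns), as CPM of the class; the colour is on a log10 scale with 1 added. Il1rn has its highest median over 3 or more mice, 29.7, in lipid-associated macrophage-like nuclei, while Nfkb1 stands at 294 in macrophage-like and 290 in progenitor-like nuclei.

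Over the sum of all nuclei, Il1rn and Tnf were higher in the high-fat controls than in all other mice. Il1rn stood at 0.388 and 0.33 CPM in the standard-diet mice, 19.3 and 16.2 in the high-fat controls, 3.29 and 2.1 in the Tert mice, and 0.458 and 0.471 in the TertCi mice. Tnf stood at 1.04 and 0.701 CPM, 10.0 and 6.86, 1.69 and 2.36, and 0.887 and 0.74 in the same order. Il1rl1 stood at 12.4 and 13.2, 19.8 and 17.4, 25.7 and 20.2, and 21.5 and 17.1 CPM. The high-fat controls thus did not overlap any other group for Il1rn or Tnf, while for Il1rl1 they overlapped the TertCi mice. All 9 members were tested across 21101 genes with edgeR's quasi-likelihood test, and a gene is called at a Benjamini-Hochberg adjusted p under 0.05. With diet, 2 members were called (40.7% of all genes were): Il1rn rose by 5.18 on the log2 scale (SE 0.324, adjusted p = 6.36e-05 by edgeR), as did Tnf by 2.84 (SE 0.432, adjusted p = 0.00225 by edgeR). Against the high-fat controls, 3 were called in the Tert mice (21.8% of all genes): Il1rn fell by 2.36 (adjusted p = 0.00191 by edgeR), Tnf fell by 1.75 (0.0248) and Il1rl1 rose by 0.65 (0.0276). The same 3 were called in the TertCi mice (35.5% of all genes), Il1rn falling by 4.79 (adjusted p = 0.000111 by edgeR), Tnf by 2.89 (0.00253) and Il1rl1 rising by 0.52 (0.0362). The Il1rl1 calls were lost on leaving out any 1 mouse of the groups compared (adjusted p up to 0.126 and 0.19 by edgeR). In the TertCi mice DESeq2 did not call Il1rl1 either (0.53, adjusted p = 0.0561), with library totals as the only scaling the difference was 0.05 (adjusted p = 0.861 by edgeR), with no filter on low counts it was 0.53 (adjusted p = 0.106 by edgeR), and the pooled ratio was 1.04 (95% counting interval 0.958 to 1.13). The Tnf call in the Tert mice was lost on leaving out rep128, rep129, rep134, rep138 or rep140 (up to 0.15). The share of members called was thus below that of all genes with diet and close to it in the TertCi mice. Macrophage-like nuclei were 3.85% and 5.27% of nuclei in the standard-diet mice, 49.8% and 47.8% in the high-fat controls, 26.7% and 28.7% in the Tert mice, and 19.9% and 15.3% in the TertCi mice. In such a sum, fewer cells of a type and less RNA per cell cannot be told apart, so the rest is given within classes.

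Within macrophage-like nuclei, the IL-1 receptor antagonist gene Il1rn and Tnf were highest in both high-fat controls, and the IL-33 receptor gene Il1rl1 was lowest in them. Against the high-fat controls, Il1rn and Tnf fell and Il1rl1 rose in the Tert mice and in the TertCi mice, but DESeq2 did not call Tnf in the Tert mice. Il18, Nlrp3, Tnfaip3 and Nfkb1 were not called in any comparison. The filter on low counts removed Il1b and Il6 and left 7 members among 13502 genes. It keeps a gene with enough counts in 2 libraries, so a gene that is high in the high-fat controls alone can pass, and the counts of members called are a description. With diet, 1 of the 7 was called, against 21.1% of all genes tested, so the members' share was no larger than the background. With 1000 UMIs as the limit of a nucleus in every library, in place of limits of 987 to 4705 set per library, 9 members were tested and 4 called with diet, against 33.5% of 15339 genes: Il1rn, Tnf (1.56, adjusted p = 0.0397 by edgeR), Il1rl1 (-0.85, 0.0141) and Il6 (-3.79, 0.0233). In the main fit, 3 of the 7 were called in the Tert mice, against 19.4%, and 3 in the TertCi mice, against 26.0%. With the limit of 1000 UMIs 3 of 9 were called in the Tert mice, against 20.4%, and 3 of 9 in the TertCi mice, against 32.0%. The class did not hold the same nuclei in every group. Of its 9 subclusters, numbers 1, 6 and 7 held 29.1%, 40.3% and 17.5% of it in rep128 and 40.4%, 29.8% and 16.9% in rep129. Subcluster 2 held 78.6% and 73.4% in the standard-diet mice, and subclusters 0, 2 and 3 together held most of it in the Tert mice and the TertCi mice (2 alone 30.3% to 58.3%). Subclusters 1, 5 and 6 were named from lipid-associated macrophage markers, and 2 and 7 from perivascular macrophage markers. Cell-division genes such as Top2a, Knl1 and Kif11 led subcluster 5, none of whose 10 leading genes is a lipid-associated marker, though 8 of those markers were raised in it. Subclusters 0 and 8 also had raised lipid-associated markers (5 and 9 of them, against 5 in subcluster 1) but were left unnamed because mitochondrial or ribosomal RNA genes were among their leading genes, and 3 had no raised marker. Subcluster 0 held 19.7% and 58.0% of macrophage-like nuclei in the Tert mice and 23.2% and 28.7% in the TertCi mice. Its 10 leading genes also included Mageb18 and A530053G22Rik, which were leading genes of adipocyte-like clusters as well. The part of adipocyte RNA in subcluster 0 was not tested.

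**Figure D2:**
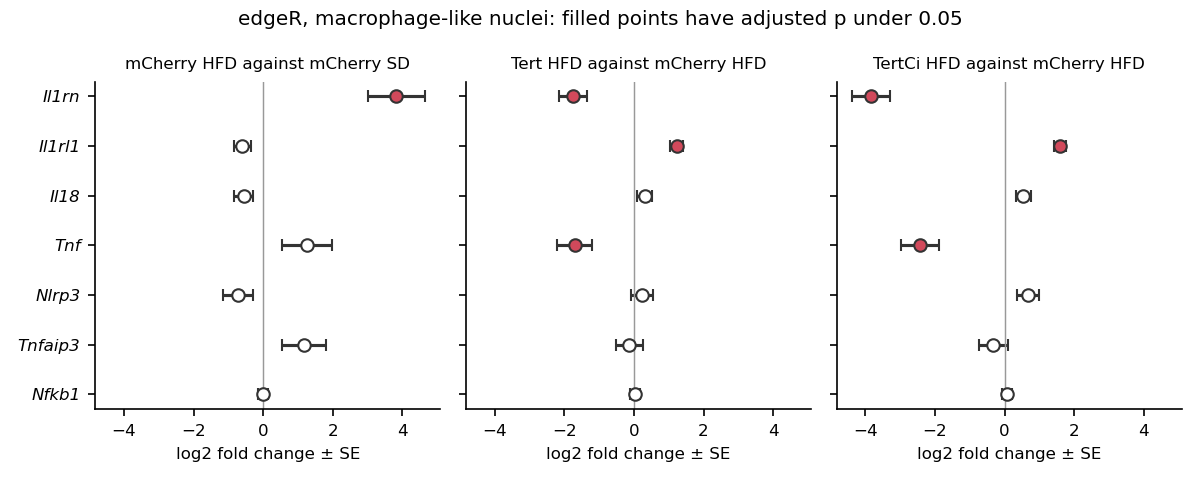
Log2 fold change ± standard error (x axis) of the 7 members tested in macrophage-like nuclei (y axis) in 3 comparisons by edgeR, with filled points for an adjusted p under 0.05. Il1rn is filled in all 3 panels, and Tnf and Il1rl1 in the Tert and TertCi panels, on opposite sides of 0.

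Il1rn encodes the secreted IL-1 receptor antagonist, which occupies the IL-1 receptor without signalling. RefSeq gives it 3 start sites, of which the one farthest upstream carries a match to the AP-1 motif. Its 250 bases before the start, chr2:24336610-24336859 on the plus strand of GRCm38.p6, are shown because Il1rn had the largest fold differences of the members tested in macrophage-like nuclei, with the motif in capitals.
Il1rn promoter 1: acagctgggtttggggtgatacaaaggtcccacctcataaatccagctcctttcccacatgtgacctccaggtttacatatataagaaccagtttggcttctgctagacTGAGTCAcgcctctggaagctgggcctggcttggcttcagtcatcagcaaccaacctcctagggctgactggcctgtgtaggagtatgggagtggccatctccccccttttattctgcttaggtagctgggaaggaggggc
The motif letters searched were TGANTCA on both strands, and 6.75% of 32851 RefSeq promoters of this length hold them. The match lay 141 to 135 bases before the start. A match is a description of letters, not a binding site.

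In macrophage-like nuclei Il1rn had 1 UMI in each standard-diet mouse (3.01 and 1.34 CPM) and 898 and 113 UMIs in the high-fat controls (33.0 and 25.5 CPM). It had 53 and 11 UMIs in the Tert mice (8.39 and 7.58 CPM) and 4 and 6 in the TertCi mice (0.842 and 5.06 CPM). Both high-fat controls lay above all 6 others, the Tert mice came next, and the TertCi mice overlapped the standard-diet mice. Group means were 2.17 ± 1.19 CPM (SD, n = 2) in the standard-diet mice, 29.2 ± 5.36 in the high-fat controls, 7.98 ± 0.573 in the Tert mice and 2.95 ± 2.98 in the TertCi mice. The diet difference was 3.83 on the log2 scale (SE 0.814, adjusted p = 0.00593 by edgeR), but it rests on 2 UMIs in the standard-diet mice. The pooled ratio was 17.3, with a counting interval of 4.77 to 143.0 (95%, counting error only), and without rep146 the call was lost (adjusted p = 0.174 by edgeR). Il1rn fell by 1.75 in the Tert mice (SE 0.407, adjusted p = 0.0107 by edgeR), a call lost without rep128 or rep134 (up to 0.129). In the TertCi mice it fell by 3.84 (SE 0.539, adjusted p = 0.00049 by edgeR), a call that held without each mouse in turn (largest adjusted p 0.0252).

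**Figure D3:**
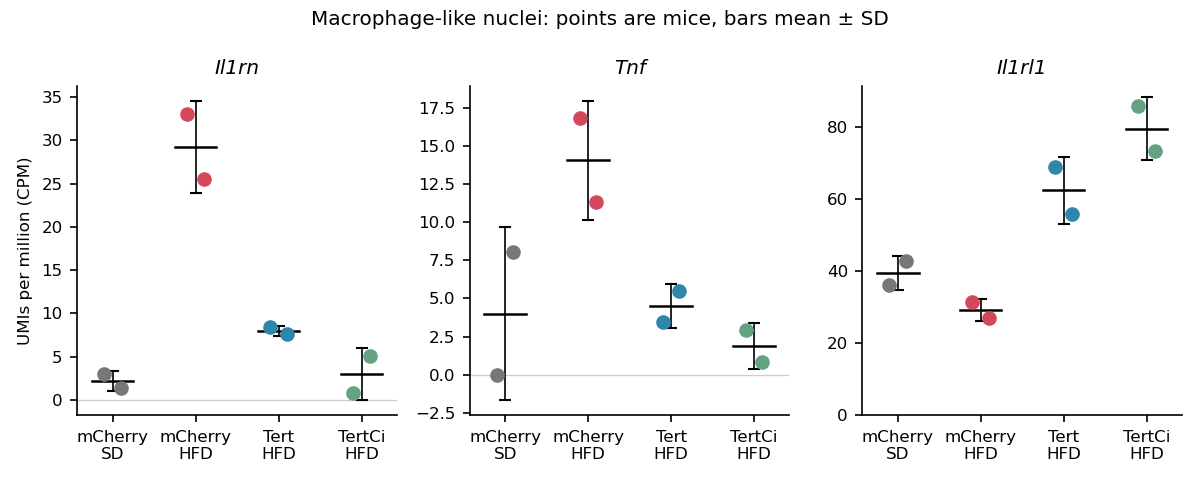
Level of Il1rn, Tnf and Il1rl1 in macrophage-like nuclei (y axis, CPM) for each mouse (points) by group (x axis), with the mean and SD of 2 mice. The mCherry HFD mice are the highest for Il1rn and Tnf and the lowest for Il1rl1.

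Few nuclei carried the Il1rn UMIs. In rep128 they came from 326 of 3705 macrophage-like nuclei, with up to 36 in a single nucleus. With each nucleus thinned to 1000 UMIs (28 shallower nuclei of rep136 left out), 2.19% and 1.6% of macrophage-like nuclei had an Il1rn UMI in the high-fat controls, 0.644% and 0.79% in the Tert mice, and 0.176% and 0% in the TertCi mice. Unthinned, these shares were 8.8% and 4.94%, 3.65% and 1.2%, and 0.352% and 1.65%. No thinned nucleus of the standard-diet mice had one (of 98 and 158, which allows up to 3.06% and 1.9%). Adipocyte-like nuclei, set beside these as another class though adipocytes can make the antagonist, had thinned shares of 0% and 1.72% in the high-fat controls (0 of 180 and 1 of 58 nuclei; 2.22% and 3.45% unthinned). The single nucleus of rep129 leaves an exact 95% binomial interval of 0.0436% to 9.24%, too wide to set against the macrophage-like share. Median depth was 1361.5 to 6365 UMIs per nucleus in macrophage-like and 3142 to 13187 in adipocyte-like nuclei. Free RNA, read from barcodes under 100 UMIs, held Il1rn at 0 and 0.663 CPM in the standard-diet mice, 24.2 and 21.3 in the high-fat controls, 5.1 and 4.4 in the Tert mice, and 0.534 and 1.77 in the TertCi mice. The high-fat controls were highest there too, and the part of free RNA in the class levels was not tested. In adipocyte-like nuclei Il1rn was at 1.34 and 4.86 CPM in the high-fat controls (4 and 2 UMIs), 1.03 and 2.13 in the Tert mice (6 and 3 UMIs), and at most 0.261 in the other 4 mice.

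Lipid-associated macrophages are the foam-cell-like macrophages of obese fat, marked by genes such as Trem2 and Gpnmb. Their markers summed to 4380 to 4990 CPM in macrophage-like nuclei of the high-fat controls, 1780 to 2100 in the Tert mice, 1370 to 1520 in the TertCi mice and 371 to 464 in the standard-diet mice. In the nuclei named from them, Il1rn was at 39.0 and 29.7 CPM in the high-fat controls (2903 and 1042 nuclei), at 52.9 and 24.7 in the Tert mice (63 and 20 nuclei, 25 and 1 UMIs) and at 8.24 in rep138 of the TertCi mice (25 nuclei, 1 UMI). These nuclei were not alike between groups. The cycling subcluster 5 gave 28 of the 63 nuclei of rep134, 12 of the 20 of rep136 and 22 of the 25 of rep138, but 334 of 2903 in rep128 and 76 of 1042 in rep129. In the high-fat controls Il1rn was at 5.24 and 4.95 CPM in subcluster 1, 45.6 and 81.1 in subcluster 5, and 58.8 and 47.6 in subcluster 6, so the levels above mix nuclei in unequal parts. With 1 UMI in rep136, its place beside the high-fat controls cannot be told from these nuclei. The size of the class depends on the limit of a nucleus. With 1000 UMIs in every library it held 2134 and 510 nuclei in the Tert mice and 1327 and 613 in the TertCi mice. It then held 10693 and 2118 in the high-fat controls, and 43 and 135 in the standard-diet mice. The sign of the Il1rn difference in the Tert mice turned with that limit. In the unnamed subcluster 0, which held 24.5% and 90.9% of the macrophage-like Il1rn UMIs of the Tert mice, Il1rn was at 11.3 and 12.2 CPM. In the nuclei named lipid-associated no member was called by edgeR over these 5 libraries, where 5.96% of 9031 genes were called in the Tert mice and 3.3% in the TertCi comparison. The TertCi arm there is rep138 alone, since rep140 had 16 nuclei, and it is assumed to vary like the other groups. With the limit of 1000 UMIs both TertCi mice were in the fit, and members were called in that comparison. The closing sections give only their count, without names, directions or the share of all genes called. The miss over these 5 libraries therefore does not show that no member differed. Without rep134, which holds most of these nuclei of the Tert group, the sign of the Il1rn difference between the Tert mice and the high-fat controls turned from 0.43 to -0.84.

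Subclusters were made from the same counts, so levels in them are a description. In the high-fat controls Il1rn was at 58.8 and 47.6 CPM in subcluster 6, led by Gpnmb, the protease gene Ctsk and the macrophage elastase gene Mmp12. That subcluster held 72.5% and 56.6% of their macrophage-like Il1rn UMIs in 40.3% and 29.8% of the nuclei. Subcluster 5, led by cell-division genes such as Top2a, had 45.6 and 81.1 CPM, while the lipid-associated subcluster 1 had 5.24 and 4.95 and the perivascular subcluster 7 had 10.9 and 13.4. Tnf was also highest in subclusters 5 and 6 of these 4, with 25.3 and 20.1 CPM in subcluster 6, 23.0 and 16.2 in 5, 7.65 and 7.43 in 1, and 9.26 and 6.07 in 7. Il1rl1 behaved otherwise: its highest levels were in subcluster 3, led by Cd226 and Skint3, in every mouse with 20 or more nuclei there.

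**Figure D4:**
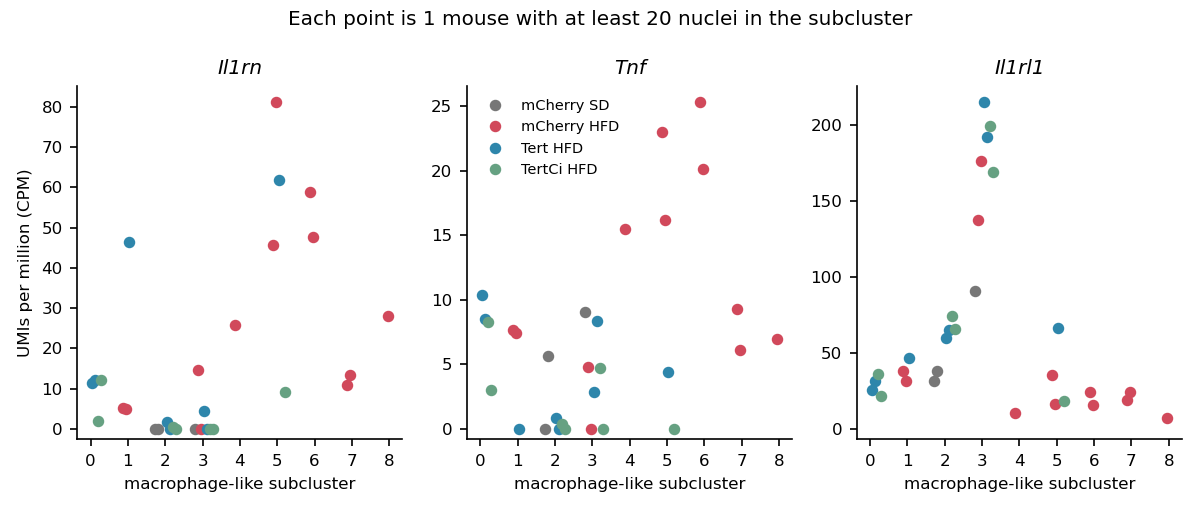
Level of Il1rn, Tnf and Il1rl1 (y axes, CPM) in each macrophage-like subcluster (x axis, numbered 0 to 8); each point is a mouse with at least 20 nuclei in that subcluster, coloured by group. Il1rn and Tnf are high in subclusters 5 and 6 of the mCherry HFD mice, and Il1rl1 is high in subcluster 3 of all groups plotted.

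Tnf encodes tumour necrosis factor, the founding cytokine of its family, and lies in a cluster with Lta and Ltb. Its 250 bases before the start, chr17:35202008-35202257 on the minus strand of GRCm38.p6, are shown because Tnf fell in the same comparisons as Il1rn.
Tnf promoter: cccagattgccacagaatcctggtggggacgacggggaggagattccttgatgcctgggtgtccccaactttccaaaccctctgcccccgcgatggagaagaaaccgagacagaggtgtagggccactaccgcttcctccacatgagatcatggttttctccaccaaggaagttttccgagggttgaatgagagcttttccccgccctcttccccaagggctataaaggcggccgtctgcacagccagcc
None of the 4 motifs searched (AP-1, the kappa-B motif, the PU.1 motif GAGGAAGT and the CRE motif TGACGTCA, both strands) had a match in this window. In macrophage-like nuclei Tnf had no UMI in rep144 (which allows up to 9.04 CPM) and 6 in rep146 (8.02 CPM). The high-fat controls had 457 and 50 UMIs (16.8 and 11.3 CPM), the Tert mice 22 and 8 (3.48 and 5.51 CPM) and the TertCi mice 14 and 1 (2.95 and 0.843 CPM). Both high-fat controls lay above the other 6, and rep146 of the standard-diet mice was the nearest to them. The diet difference, 1.27 on the log2 scale (SE 0.72), was not called (adjusted p = 0.231 by edgeR). Tnf fell by 1.70 in the Tert mice (SE 0.503, adjusted p = 0.0328 by edgeR) and by 2.43 in the TertCi mice (SE 0.556, adjusted p = 0.00758 by edgeR). Neither call held throughout. The Tert call was lost with DESeq2 (-1.61, adjusted p = 0.133), with the limit of 1000 UMIs (-1.21, adjusted p = 0.0773 by edgeR) and without rep128, rep129 or rep134 (adjusted p up to 0.363 by edgeR), and the TertCi call without rep128 or rep138 (up to 0.108). Free RNA carried Tnf at 0.638 and 0 CPM in the standard-diet mice, 20.5 and 13.2 in the high-fat controls, 4.67 and 2.05 in the Tert mice, and 2.14 and 3.54 in the TertCi mice. The high-fat controls were highest there too, and its part in the class levels was not tested.

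Il1b, Il6 and Il18 are the other cytokine genes. Il1b had 48 UMIs in macrophage-like nuclei of all mice, from 0 CPM in rep144 to 2.07 in rep136. Its 2.03 CPM in rep129 came from 9 UMIs in 2 nuclei, 8 of them in a single nucleus. Il1b was thus too scarce to compare within macrophage-like nuclei at this depth. Over all nuclei it had 58 UMIs in the high-fat controls and 6 in the TertCi mice, a pooled ratio of 0.162 (95% counting interval 0.057 to 0.374), and the difference of -2.13 was not past the threshold (SE 0.801, adjusted p = 0.0713 by edgeR). Il6 stood at 0 and 2.67 CPM in the standard-diet mice, 0.0368 and 0.225 in the high-fat controls, 3.16 and 0 in the Tert mice, and 1.05 and 1.69 in the TertCi mice. The 3.16 CPM of rep134 were 20 UMIs in 19 nuclei, and both high-fat controls together had 2 UMIs. The pooled ratio of the Tert mice to the high-fat controls was 40.7 (95% counting interval 9.89 to 359.0), but the other Tert mouse had none, and the filter on low counts removed Il6. That of the TertCi mice to the high-fat controls was 18.7 (3.55 to 184.0), on 7 UMIs in the TertCi mice. The ratio of the high-fat controls to the standard-diet mice was 0.0341 (0.00248 to 0.471), on 2 UMIs in each group. With the limit of 1000 UMIs Il6 passed that filter and differed by 3.45 in the Tert mice (adjusted p = 0.0236 by edgeR). Il18 stood at 45.2 and 40.1 CPM, 27.7 and 36.0, 37.7 and 33.1, and 40.4 and 42.2 in macrophage-like nuclei of the standard-diet mice, the high-fat controls, the Tert mice and the TertCi mice. The high-fat controls overlapped only the Tert mice. No Il18 difference was called: -0.56 with diet (adjusted p = 0.153 by edgeR), 0.31 in the Tert mice (0.35) and 0.53 in the TertCi mice (0.0923). In the mixed mesothelial-led clusters, which were not tested, Il18 was at 38.6 and 27.1 CPM in the standard-diet mice, 78.6 and 66.5 in the high-fat controls, 67.1 and 47.3 in the Tert mice, and 54.1 and 38.8 in the TertCi mice. There the standard-diet mice were the lowest, and the Tert mice overlapped both other High Fat groups.

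Il1rl1 encodes ST2, the receptor of the alarmin IL-33, which is best known on group 2 innate lymphoid cells, regulatory T cells and mast cells. It has 2 RefSeq start sites, chr1:40429320-40429569 and chr1:40439379-40439628 before them on the plus strand of GRCm38.p6, and both windows are shown because Il1rl1 moved against Il1rn and Tnf.
Il1rl1 promoter 1: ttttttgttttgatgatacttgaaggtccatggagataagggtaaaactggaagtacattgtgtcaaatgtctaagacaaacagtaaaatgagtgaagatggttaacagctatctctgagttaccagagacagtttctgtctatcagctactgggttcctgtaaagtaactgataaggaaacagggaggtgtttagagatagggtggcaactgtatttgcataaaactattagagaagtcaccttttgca
Il1rl1 promoter 2: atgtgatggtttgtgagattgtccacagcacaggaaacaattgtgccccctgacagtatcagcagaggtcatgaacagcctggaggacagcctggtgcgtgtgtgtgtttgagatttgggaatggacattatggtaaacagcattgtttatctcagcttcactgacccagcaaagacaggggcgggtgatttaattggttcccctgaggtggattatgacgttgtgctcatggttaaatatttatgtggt
Neither window held any of the 4 motifs. In macrophage-like nuclei Il1rl1 stood at 36.1 and 42.8 CPM in the standard-diet mice, 31.4 and 27.0 in the high-fat controls, 69.0 and 55.8 in the Tert mice, and 85.7 and 73.4 in the TertCi mice. The groups did not overlap: the high-fat controls were lowest and the TertCi mice highest. Means were 39.5 ± 4.68 CPM (SD, n = 2), 29.2 ± 3.07, 62.4 ± 9.34 and 79.5 ± 8.7. Il1rl1 rose by 1.23 on the log2 scale in the Tert mice (SE 0.18, adjusted p = 0.00108 by edgeR) and by 1.59 in the TertCi mice (SE 0.181, adjusted p = 0.000158 by edgeR). Both calls held without each mouse in turn, at 1.15 to 1.36 and 1.49 to 1.73 (largest adjusted p 0.00832 and 0.00873 by edgeR). With diet it was 0.60 lower on that scale (a log2 difference of -0.60, SE 0.238) and missed the threshold (adjusted p = 0.0922 by edgeR).

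Thinned to 1000 UMIs, 2.89% and 2.18% of macrophage-like nuclei had an Il1rl1 UMI in the high-fat controls, 5.69% and 6.09% in the Tert mice and 8.1% and 8.25% in the TertCi mice. Unthinned, the shares were 14.5% and 7.05%, 24.9% and 7.77%, and 22.6% and 21.8%. In the standard-diet mice they were 3.06% and 1.9% thinned (3 of 98 and 3 of 158 nuclei) and 9.18% and 15.8% unthinned. By these shares the standard-diet mice overlapped the high-fat controls, which were thus lowest in CPM but not in the share of nuclei. In adipocyte-like nuclei the thinned shares were 0.556% and 1.72% in the high-fat controls, 0.833% and 0.554% in the Tert mice, and 0.637% and 0.63% in the TertCi mice. The 8 markers of group 2 innate lymphoid and regulatory T cells summed to 207 to 242 CPM in macrophage-like nuclei of the high-fat controls, to 71.6 to 83.4 in the Tert mice, 61.9 to 66.6 in the TertCi mice and 6.02 to 20.0 in the standard-diet mice. The 8 mast cell markers were at 0 in the standard-diet mice and summed to 5.15 to 6.08 in the high-fat controls, 1.9 to 2.76 in the Tert mice and 0.843 to 1.26 in the TertCi mice. Of the 8 lymphoid markers, 1 and 4 had a UMI in the standard-diet mice, 8 and 7 in the high-fat controls, 5 and 3 in the Tert mice, and 7 and 2 in the TertCi mice. Il5 was at 0 in every mouse but rep128. Of the mast cell markers, Cma1, Fcer1a and Tpsb2 were at 0 in both Tert mice and both TertCi mice. Other lists were lowest in the high-fat controls, as Il1rl1 was. The 8 B cell markers summed to 124 to 155 CPM there, 239 to 369 in the Tert mice, 530 to 569 in the TertCi mice and 693 to 862 in the standard-diet mice. Dendritic cell markers (8) summed to 65.2 to 77.5 CPM there and to 79.2 or more in each other mouse. In the same order as for B cells, the 7 monocyte markers summed to 237 to 272, 288 to 380, 432 to 454 and 310 to 460 CPM, the 7 Schwann cell markers to 10.3 to 20.3, 24.2 to 25.5, 25.3 to 37.7 and 27.1 to 68.2, and the 8 perivascular macrophage markers to 2790 to 3130, 3680 to 7900, 5540 to 7650 and 9070 to 10000. Endothelial markers (9) summed to 50.9 to 66.9 CPM in the high-fat controls, 110 to 114 in the Tert mice, 68.3 to 98.1 in the TertCi mice and 66.8 to 69.3 in the standard-diet mice, which the high-fat controls just reached. Free RNA held Il1rl1 at 11.2 and 13.3 CPM in the standard-diet mice, 23.9 and 18.8 in the high-fat controls, 31.9 and 22.0 in the Tert mice, and 29.4 and 33.6 in the TertCi mice. The part of these cells and of free RNA in the Il1rl1 result was not tested.

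Perivascular macrophages are the resident, Lyve1- and Cd163-expressing macrophages along vessels. In the nuclei named from their markers Il1rl1 stood at 31.2 and 37.2 CPM in the standard-diet mice, 18.9 and 24.7 in the high-fat controls, 58.9 and 66.8 in the Tert mice, and 73.9 and 65.9 in the TertCi mice. The high-fat controls were again below all others, and the Tert mice and the TertCi mice overlapped. Il1rl1 was the only member of the 4 tested that was called: it rose by 1.63 in the Tert mice (SE 0.254, adjusted p = 0.000603 by edgeR, where 11.5% of 8309 genes were called) and by 1.89 in the TertCi mice (SE 0.251, adjusted p = 0.000108 by edgeR, where 18.3% were). Neither call was lost on leaving out a mouse (largest adjusted p 0.0497 and 0.00998 by edgeR). With diet, where edgeR called 14.1% of genes, the difference was -0.90 and missed the threshold (adjusted p = 0.0935). Nuclei of this class in the high-fat controls came from subcluster 7 for the most part, and those of the other groups mostly from subcluster 2. In subcluster 3, Il1rl1 was at 90.7 CPM in rep146, 137 and 176 in the high-fat controls, 215 and 192 in the Tert mice, and 199 and 169 in the TertCi mice. That subcluster held 2.97% and 2.03% of macrophage-like nuclei in the high-fat controls against 10.2% and 13.3% in the standard-diet mice, 11.8% and 7.99% in the Tert mice, and 18.1% and 19.8% in the TertCi mice.

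Il1rl1 lies between Il1rl2, the receptor gene for IL-36, and Il18r1, the receptor gene for IL-18, in the GRCm38.p6 gene order. Il1rl2 rose with it in macrophage-like nuclei, by 1.27 in the Tert mice (SE 0.392, adjusted p = 0.0397 by edgeR) and by 1.70 in the TertCi mice (SE 0.397, adjusted p = 0.00849 by edgeR). Its levels were 15.1 and 10.7 CPM in the standard-diet mice, 8.35 and 13.3 in the high-fat controls, 22.6 and 23.4 in the Tert mice, and 19.8 and 45.5 in the TertCi mice. Il18r1 rose by 2.05 in the TertCi mice (SE 0.566, adjusted p = 0.0193 by edgeR), from 2.79 and 3.38 CPM in the high-fat controls to 10.9 and 11.8. The counting is not known to use strand, so reads shared between neighbouring or antisense transcripts cannot be told apart. The Il1rl2 call in the Tert mice was lost without rep128, rep134 or rep144 and with DESeq2, its call in the TertCi mice without rep128 or rep140, and the Il18r1 call without rep128 or rep138.

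Nlrp3 encodes the sensor of the NLRP3 inflammasome. It stood at 12.0 and 14.7 CPM in the standard-diet mice, 8.38 and 10.4 in the high-fat controls, 11.7 and 6.89 in the Tert mice, and 13.1 and 13.5 in the TertCi mice. The high-fat controls lay below the standard-diet mice and the TertCi mice and within the range of the Tert mice. No difference was called (the TertCi mice 0.66, adjusted p = 0.15 by edgeR; diet -0.72, adjusted p = 0.259 by edgeR).

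Tnfaip3 encodes A20, a ubiquitin-editing enzyme that NF-κB induces and that in turn restrains NF-κB. Its first listed promoter, chr10:19015411-19015660 on the minus strand of GRCm38.p6, is shown because it holds the most motif matches among the members, in capitals.
Tnfaip3 promoter 1: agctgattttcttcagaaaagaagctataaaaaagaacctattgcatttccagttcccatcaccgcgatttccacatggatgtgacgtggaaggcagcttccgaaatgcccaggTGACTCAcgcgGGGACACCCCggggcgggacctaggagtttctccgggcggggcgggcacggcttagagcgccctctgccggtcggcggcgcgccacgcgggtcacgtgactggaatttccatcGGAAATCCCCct
It carries kappa-B matches 125 to 116 and, on the opposite strand, 12 to 3 bases before the start, and an AP-1 match just upstream of the first of them. The kappa-B motif occurs in 5.93% of the 32851 promoters, and these matches do not overlap. Of the 8 members with a promoter in the table, Il6 and Nlrp3 also held a kappa-B match (at 44 to 35 bases and, at the second Nlrp3 start, 186 to 177 bases before the start), and Il6 an AP-1 match. Nfkb1 had no promoter entry. In macrophage-like nuclei Tnfaip3 stood at 15.1 and 5.35 CPM in the standard-diet mice, 21.6 and 21.4 in the high-fat controls, 25.6 and 6.89 in the Tert mice, and 14.7 and 16.9 in the TertCi mice. The high-fat controls lay close together, the Tert mice on either side of them, and no difference was called (diet 1.18, SE 0.632, adjusted p = 0.205 by edgeR; the Tert mice -0.14, adjusted p = 0.847; the TertCi mice -0.33, adjusted p = 0.602).

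Nfkb1 encodes p105, the precursor of the NF-κB subunit p50. It was the best counted member and the steadiest: 295 and 266 CPM in the standard-diet mice, 298 and 321 in the high-fat controls, 313 and 259 in the Tert mice, and 293 and 293 in the TertCi mice. Both high-fat controls lay above the standard-diet and the TertCi mice, rep128 only narrowly, and the Tert mice spanned most of that range. Its log2 differences in macrophage-like nuclei were -0.0046 with diet (SE 0.151), 0.03 in the Tert mice (SE 0.14) and 0.07 in the TertCi mice (SE 0.141) (adjusted p = 0.991, 0.913 and 0.757 by edgeR), none called. These signs turn with the scaling: with library totals only, as in CPM, the differences were 0.15, -0.11 and -0.08 (adjusted p = 0.508, 0.638 and 0.712 by edgeR).

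The other genes of the pathway were read from lists of 97 genes, members included, of which 77 were tested in macrophage-like nuclei. With diet 10 were called higher and 7 lower (11.5% and 9.67% of all genes tested), in the Tert mice 5 and 5 (7.66% and 11.7%), and in the TertCi mice 6 and 16 (10.6% and 15.4%). Median log2 differences over the 77 were 0.07, 0.05 and -0.14, beside 0.11, -0.04 and -0.08 over all genes tested. The counts rested on few mice. The TertCi mice had 3 higher and 6 lower without rep128, 4 and 3 without rep138, 5 and 9 without rep140, and 15 and 20 without rep136. The diet comparison had 3 and 5 without rep146, 7 and 4 without rep144, and 6 and 2 without rep128. The Tert mice had 3 and 1 without rep128, and 7 and 9 without rep134. No called gene changed direction in these fits, and with library totals as the only scaling the counts were 12 and 3, 4 and 7, and 5 and 19. Over all genes, 54.3%, 39.5% and 40.9% of calls were higher, against 65.9%, 27.5% and 28.9% with that scaling.

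Among feedback inhibitors of NF-κB, Tnip3, which encodes an A20-binding inhibitor, rose by 3.00 with diet (SE 0.324, adjusted p = 7.57e-05 by edgeR), from 18.1 and 22.7 CPM to 220 and 151. In the other High Fat mice it ranged from 93.5 (rep138) to 153 (rep134), so the Tert mice overlapped the high-fat controls. Nfkbid, a nuclear IκB protein, rose by 2.11 with diet (adjusted p = 0.00519 by edgeR) from 9.04 and 6.68 CPM to 38.9 and 31.8. Of 13 tested feedback inhibitors, 3 rose and 1 (Bcl3) fell with diet, 1 (Otulin) fell in the Tert mice, and 4 (Nfkbib, Nfkbid, Otulin and Zc3h12a) fell in the TertCi mice. Among 11 inflammasome genes, the adaptor gene Pycard (ASC) rose by 1.62 with diet (adjusted p = 0.0385 by edgeR), from 3.01 and 12.0 CPM to 33.0 and 27.7. Pycard fell by 1.31 in the Tert mice (adjusted p = 0.0189 by edgeR), and Pycard, Casp1 (which cuts the IL-1β precursor) and Gsdmd (which forms the pore that releases it) fell in the TertCi mice. All 3 TertCi calls were lost without rep128 or rep140, and the diet call of Pycard without rep128, rep129, rep144 or rep146.

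Of 17 adaptors and kinases, Ikbkg (NEMO, the regulatory subunit of the IκB kinase) rose by 1.68 with diet (adjusted p = 0.00229 by edgeR), from 18.1 and 16.0 CPM to 54.5 and 64.4. It fell by 1.19 in the Tert mice (adjusted p = 0.00318 by edgeR), to 26.4 and 20.0, and was also called lower in the TertCi mice, at 25.7 and 23.6. Traf2, an adaptor of the TNF receptors, rose by 1.02 in the Tert mice (adjusted p = 0.0211 by edgeR), from 15.7 and 16.2 CPM in the high-fat controls to 25.8 and 34.4, and lost its call without rep128, rep129 or rep136. The TNF family ligand gene Tnfsf12 (TWEAK) rose by 2.28 with diet (adjusted p = 0.0129 by edgeR), from 6.02 and 5.35 CPM to 30.4 and 29.3, and lost its call without rep144 or rep146. Of 4 tested genes of IL-6-type cytokines, the receptor genes Il6ra and Lifr fell with diet and rose in the Tert and the TertCi mice. Lifr, the receptor of leukaemia inhibitory factor, went from 654 and 642 CPM in the standard-diet mice to 189 and 195 in the high-fat controls (-1.91, adjusted p = 0.000308 by edgeR). It stood at 595 and 262 in the Tert mice and at 726 and 535 in the TertCi mice. Among 10 tested genes that NF-κB induces, 4 fell in the TertCi mice: the chemokine genes Ccl2 (by 2.67, adjusted p = 0.00513 by edgeR), Cxcl2 (by 2.57, adjusted p = 0.0112) and Ccl4 (by 2.31, adjusted p = 0.0132), and Tnfaip2, while the adhesion molecule gene Vcam1 rose. With diet Vcam1 fell by 1.77 (adjusted p = 0.0252 by edgeR), from 18.1 and 18.7 CPM to 5.15 and 7.21. Ccl2 had 24.4 and 23.0 CPM in the high-fat controls and 3.37 in each TertCi mouse, but 17.7 and 2.76 in the Tert mice.

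**Figure D5:**
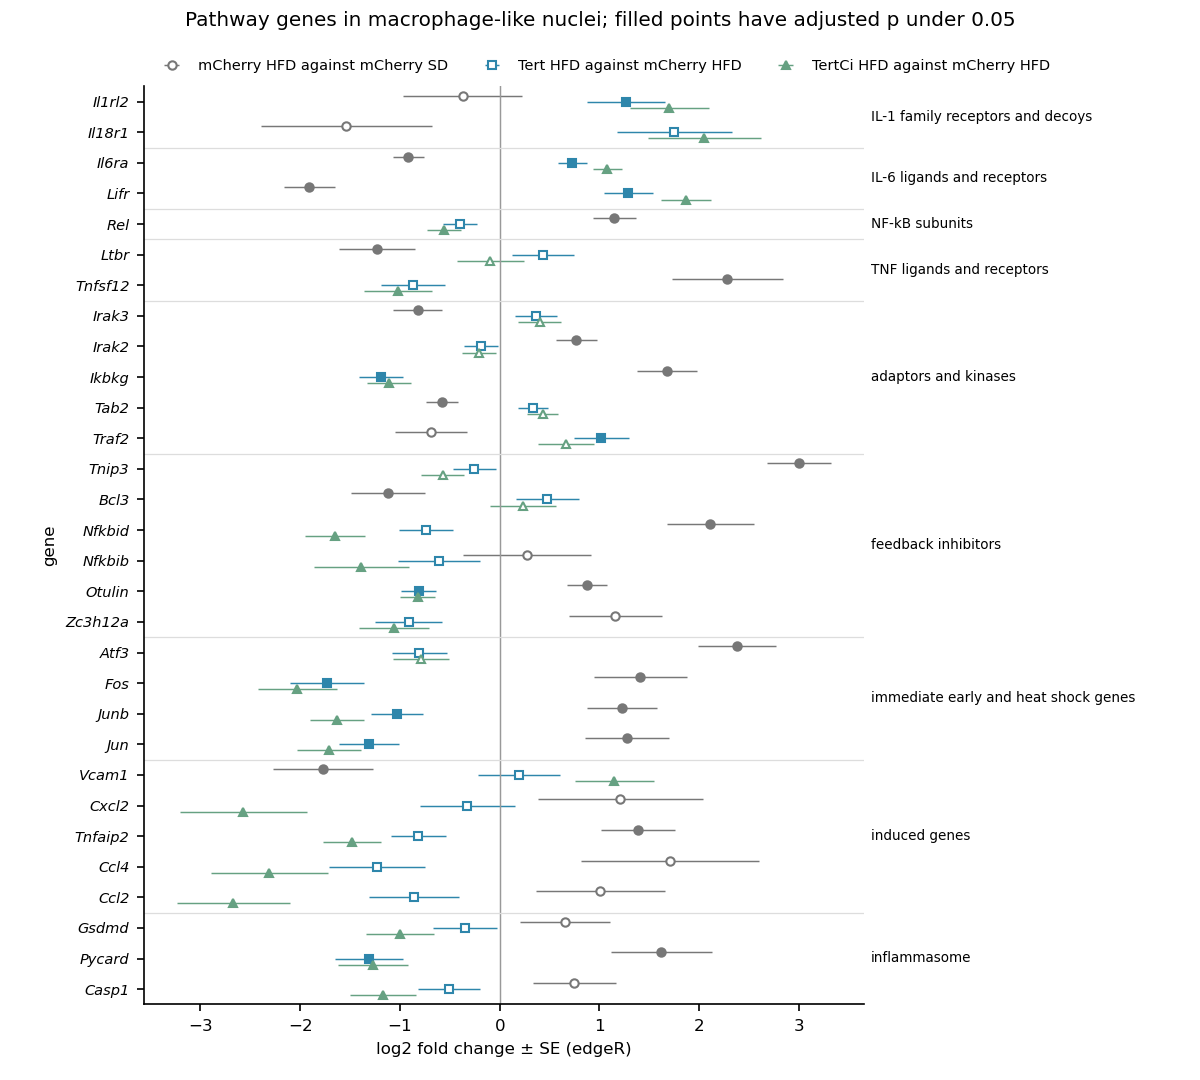
Log2 fold change ± standard error by edgeR (x axis) in macrophage-like nuclei of every pathway gene, members aside, that was called in at least 1 of 3 comparisons (y axis, grouped by list); filled points have an adjusted p under 0.05. Feedback, induced and immediate early genes that are filled on the right with diet lie left of 0 in the Tert and TertCi comparisons, which share the mCherry HFD mice with it.

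Immediate early genes, which tissue handling can induce within minutes, moved with these results. Of 6 tested in macrophage-like nuclei, Atf3, Fos, Jun and Junb rose with diet, and Fos, Jun and Junb fell in the Tert and the TertCi mice. Without rep128 only Atf3 was called with diet, none in the Tert mice, and the same 3 in the TertCi mice. Fos was at 3.01 and 32.1 CPM in the standard-diet mice, 68.4 and 58.3 in the high-fat controls, 19.1 and 15.2 in the Tert mice, and 10.9 and 20.2 in the TertCi mice. Adipocyte markers in macrophage-like nuclei summed to 1790 to 2270 CPM in the standard-diet mice, 3350 to 3560 in the high-fat controls, 2080 to 2550 in the Tert mice and 2250 to 2580 in the TertCi mice. In the same order, progenitor markers summed to 347 to 349, 459 to 873, 364 to 381 and 207 to 284 CPM. Cycling markers summed to 12.0 to 32.1, 110 to 135, 35.1 to 74.4 and 50.1 to 74.2, and lymphatic endothelial markers to 0 to 12.0, 16.3 to 18.5, 10.3 to 13.3 and 4.21 to 5.9. Lists that were lowest in the high-fat controls are given with Il1rl1 above. The class's own 10 markers summed to 9680 to 10500 CPM in the standard-diet mice, 4730 to 4950 in the high-fat controls, 4730 to 9180 in the Tert mice and 6500 to 8550 in the TertCi mice. The 8 neutrophil markers summed to 44.1 to 72.3 CPM in the standard-diet mice, 32.3 to 34.7 in the high-fat controls, 72.2 to 73.0 in the Tert mice and 42.2 to 42.7 in the TertCi mice, with Ly6g and Mmp8 at 0 in all 8 mice. The part of each in the Il1rn, Tnf and Il1rl1 results was not tested.

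In adipocyte-like and progenitor-like nuclei only Il1rl1, Il18, Tnfaip3 and Nfkb1 passed the filter, and none was called by edgeR in any comparison. DESeq2 called none either, and at an unadjusted p under 0.05 edgeR had 1, Tnfaip3 with diet in adipocyte-like nuclei (1.15, SE 0.432, adjusted p = 0.0792). Of all genes, 22.0%, 3.83% and 16.3% were called in adipocyte-like nuclei with diet, in the Tert mice and in the TertCi mice, and 11.4%, 10.3% and 19.0% in progenitor-like nuclei. Other pathway genes did move in adipocyte-like nuclei: of 69 tested, 18 rose and 2 fell with diet (13.5% and 8.51% of all genes), and 2 rose and 13 fell in the TertCi mice (6.31% and 10.0%). Without rep128 these became 2 and 0, and 1 and 0. The high-fat controls had only 180 and 58 adipocyte-like nuclei, while macrophage-like nuclei were 49.8% and 47.8% of their nuclei. Pycard stood at 19.8 and 24.3 CPM in those adipocyte-like nuclei, beside 24.7 and 20.0 over all nuclei. Free RNA was read for the members only, and its part in the levels of other pathway genes was not tested in any class. The monocyte-attracting chemokine gene Ccl2 rose by 3.54 with diet (adjusted p = 0.0015 by edgeR), from 1.44 and 3.39 CPM to 43.9 and 26.7, and fell by 2.04 in the Tert mice (adjusted p = 0.0376) and 4.04 in the TertCi mice (adjusted p = 0.00208). Each of the 3 Ccl2 calls was lost without rep128. Of the 69, none rose and 4 fell in the Tert mice (1.16% and 2.67% of all genes), and none of the 4 was called without rep128. Atf3 rose with diet by 3.35 (adjusted p = 0.000938 by edgeR) and Tnip3 by 2.97 (adjusted p = 0.00105), both also without rep128. The chemokine gene Cxcl1 rose by 3.22 with diet (adjusted p = 0.0244 by edgeR), from 0 and 1.43 CPM to 9.72 and 12.1, and fell by 3.83 in the TertCi mice (adjusted p = 0.0172). Cxcl1 was at 2.41 CPM or less in every other mouse, and the 12.1 CPM of rep129 came from 58 nuclei. The filter keeps a gene with enough counts in 2 libraries, so a gene high in the high-fat controls alone can pass. These Cxcl1 calls are therefore a description. Pycard fell by 2.76 in the Tert mice (adjusted p = 0.0194 by edgeR) and 3.15 in the TertCi mice (adjusted p = 0.00345), Ikbkg by 1.19 and Atf3 by 1.52 in the Tert mice (0.0288 and 0.0482), and Fos by 2.73 in the TertCi mice (0.0126). Without rep128 each of these calls but the diet calls of Atf3 and Tnip3 was lost.

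In progenitor-like nuclei, of 68 pathway genes tested, 5 rose and 2 fell with diet (7.29% and 4.07% of all genes), 2 rose and 1 fell in the Tert mice (2.84% and 7.5%), and 2 rose and 7 fell in the TertCi mice (6.52% and 12.5%). Without rep128 these became 3 and 0, 0 and 0, and 1 and 1. There, the IL-33 gene Il33, whose product is the ligand of ST2, fell by 1.80 in the Tert mice (SE 0.355, adjusted p = 0.00948 by edgeR). Il33 stood there at 23.7 and 27.0 CPM in the standard-diet mice, 66.1 and 74.3 in the high-fat controls, 25.1 and 5.64 in the Tert mice, and 23.2 and 29.0 in the TertCi mice. Both high-fat controls were above the other 6, and the call was lost without rep128. Lif, a cytokine of the IL-6 type, moved the other way: it rose by 1.94 in the Tert mice (SE 0.453, adjusted p = 0.0195 by edgeR), from 3.02 and 3.1 CPM to 14.0 and 4.83, and its receptor gene Lifr rose by 0.78 (adjusted p = 0.0246). Lif fell by 1.94 with diet (adjusted p = 0.0455 by edgeR) from 11.9 and 8.99 CPM, as did the prostaglandin synthase gene Ptgs2 by 1.89 (adjusted p = 0.0466), while Tnip3 rose by 2.80 (0.0143) and the DNA sensor gene Aim2 by 1.66 (0.0343). In the TertCi mice Fos fell by 3.01 (adjusted p = 0.0106 by edgeR), the feedback gene Socs3 by 2.51 (0.00895), Pycard by 2.22 (0.017) and Ccl2 by 1.92 (0.0106). Of these calls, DESeq2 did not make those of Lif in either comparison, nor those of Ptgs2, Tnip3, Aim2, Socs3 and Pycard. Without rep128 the calls of Lif, Lifr, Ptgs2, Tnip3, Fos, Socs3, Pycard and Ccl2 were lost, and that of Aim2 without rep129, rep144 or rep146.

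In perivascular macrophage-like nuclei, Tnip3 rose by 2.38 (adjusted p = 0.0107 by edgeR), Pycard by 2.19 (0.0302) and Atf3 by 1.99 (0.0279) with diet, and Il6st, the shared receptor chain of IL-6-type cytokines, fell by 0.96 (0.0194). Fos fell by 2.06 (adjusted p = 0.0142 by edgeR), Jun by 1.84 (0.00734) and Atf3 by 1.44 (0.0246) in the Tert mice, and Fos by 3.42 (0.00121), Ccl2 by 2.14 (0.0116), Atf3 by 2.06 (0.00337) and Junb by 1.97 (0.00822) in the TertCi mice. Without rep128 all of these calls but that of Fos in the TertCi mice were lost, and that of Fos was lost without rep138. In the nuclei named lipid-associated, Cxcl2 rose by 2.11 (adjusted p = 0.00509 by edgeR) and Atf3 fell by 1.16 (0.0177) in the Tert mice, but rep136 had no Cxcl2 UMI, and without rep134 its sign turned. DESeq2 made neither of these calls. Over all nuclei, Ccl3, a chemokine gene, rose by 4.00 with diet (adjusted p = 0.00451 by edgeR) and fell by 4.88 in the TertCi mice (adjusted p = 0.00321), at 2.2 and 1.13 CPM in the high-fat controls and at most 0.63 elsewhere, and its diet call was lost without rep128. Ptgs2 fell there by 3.09 with diet (adjusted p = 0.0368 by edgeR), but its 24.7 CPM in rep146 stood against 2.01 in rep144, and the call was lost with library totals as the only scaling and without any of rep128, rep129, rep138, rep140 or rep146. Lif rose by 1.85 in the Tert mice (adjusted p = 0.0132 by edgeR) and Il33 fell by 1.47 (0.0196), both lost without rep128 or rep129. Atf3 rose by 3.67 (adjusted p = 0.000112 by edgeR) and Tnip3 by 3.47 (4.1e-05) with diet over all nuclei, and neither call was lost on leaving out a mouse. Fos fell by 2.07 (adjusted p = 0.0315 by edgeR) and Pycard by 1.92 (0.0149) in the Tert mice, both lost without rep128 or rep129, and Cxcl2 by 3.55 (0.00116), Ccl4 by 3.18 (0.00631) and Fos by 2.96 (0.00592) in the TertCi mice, where the calls of Ccl4 and Fos were lost without rep138.

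The Tert mice and the TertCi mice were also set against each other. No member was called in any class in the main fit. Of all genes, edgeR called 0.0111% in lipid-associated macrophage-like nuclei, where rep138 is the only TertCi mouse, 0.012% in perivascular macrophage-like nuclei, and 0.0% in adipocyte-like and progenitor-like nuclei. In macrophage-like nuclei edgeR called 0 of 13502 genes (0.0%, 539 at an unadjusted p under 0.05) and DESeq2 called 0. Over all nuclei edgeR called 0 of 21101 (0.0%, 1898 unadjusted, Il1rn and Tnf among them) and DESeq2 174, no member among them. Il1rn was 2.09 higher on the log2 scale in the Tert mice within macrophage-like nuclei (SE 0.61, unadjusted p = 0.00483, adjusted p = 1.0 by edgeR), at 8.39 and 7.58 CPM against 0.842 and 5.06. Il1rl1 differed by -0.36 (SE 0.182), Tnf by 0.73 (SE 0.661) and Nfkb1 by -0.04 (SE 0.143). These misses do not show that the groups are alike. The Il1rn estimate ranged from 0.61 to 3.21 on leaving out a mouse.

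The genes most like each member were ranked by Pearson's r of log levels over 43 sums of a class and a mouse, among 17488 genes. The sums share libraries and depth, so r is a description. Il1rn was most like Gusb (r = 0.897), Lgals3 (0.894) and Atp6v1b2 (0.888), a lysosomal enzyme, galectin-3 and a subunit of the proton pump. Il1rl1 was most like Gm26740 (0.876), Sla (0.872) and Lcp2 (0.871), and Nfkb1 like Timp2 (0.89), Ncoa7 (0.887) and Apbb1ip (0.886). Il18 was like Cmah (0.786) and Maf (0.768), and Nlrp3 like Gm10441 (0.852), Gm13373 (0.838) and the Fc receptor gene Fcgr1 (0.818). For Tnf the values were 0.802 (Gm30246), 0.795 (Gnat3) and 0.78 (Gm4610), and for Tnfaip3 0.709 (Washc1), 0.673 (Tex14) and 0.646 (Max). The lowest were those of the scarce Il1b (Fosb, 0.639; 1500005C15Rik, 0.625; Knstrn, 0.602) and Il6 (Vps45, 0.632; Ifi208, 0.606; Gda, 0.569).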

How the data were processed

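Single-nucleus RNA libraries of 8 mice were deposited by the authors as unfiltered matrices of UMI counts per gene and barcode, made with Cell Ranger 7.1.0 per the file headers. The submitters' processing notes name Cell Ranger 5.0.1, bcl2fastq 2.20.0 and mm39. Nuclei were DAPI-sorted and 3' libraries made, per the labels' protocols.

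A barcode counted as a nucleus if its UMIs reached 500 and also 0.1 of the 99th percentile among the 5000 deepest barcodes, if it had 300 genes or more and if no more than 5% of its UMIs were mitochondrial. Scrublet's automatic threshold marked 0 to 0.154% of nuclei, so 0.8% per 1000 nuclei were removed by score (1.59% to 6.35%). Clustering used scanpy 1.11.5 (2000 variable genes, 30 components, 15 neighbours, resolution 1.0; 0.5 for subclusters), in Python 3.11.15. Clusters were named from markers. The minimum of 50 nuclei per named cluster, the doublet share and leaving unnamed any subcluster with 2 or more mitochondrial or ribosomal RNA genes among its 10 leading genes were chosen after seeing the data. UMIs were summed per class and mouse with at least 20 nuclei and tested with edgeR 4.0.16 (TMM, filterByExpr, quasi-likelihood test, all groups in 1 fit, Benjamini-Hochberg over all genes tested) in R 4.3.3; DESeq2 1.42.0 was an alternative. CPM are UMIs per 1000000 UMIs of that sum. Standard errors were derived from the edgeR log2 fold change and the F statistic of its quasi-likelihood test. On simulated counts of the diet comparison in macrophage-like nuclei (12788 genes), 7.07% of genes changed 2-fold and 70.0% of those changed 4-fold were called, and 0.0397% of unchanged genes.

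Members and lists were chosen with earlier results of these data known. Named are the 9 members; of other list genes, per comparison, the 8 called with the largest change in macrophage-like and 4 in other tested classes; and the 3 genes most alike for members with 100 or more UMIs. For Il18, 1 of these 3 is not reported here. Other list genes were named after their values were seen. Promoters are RefSeq's on GRCm38.p6, not the files' build; 8 of 9 members matched. Replicate numbers differ between groups, so samples were unpaired. The Tert, mCherry and batch labels could not be checked.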

Additional observations from a re-analysis of the deposited data

Results flagged for a closer look

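The Il1rl1 levels of the Tert mice lay above those of the high-fat controls in macrophage-like nuclei and below them in mural-like nuclei. The ratio of group means was 2.14 in macrophage-like nuclei and 0.667 in mural-like nuclei, and in each class both mice of a group lay on the same side of both mice of the other. In mural-like nuclei, the contractile cells around vessels, Il1rl1 stood at 13.7 and 16.1 CPM in the high-fat controls (14 and 3 UMIs) and at 11.6 and 8.28 in the Tert mice (7 and 1 UMIs). It stood there at 29.4 and 31.7 CPM in the standard-diet mice and at 31.2 and 8.36 in the TertCi mice. The mural-like values rest on few UMIs in few nuclei. In rep128, 8 of the 14 UMIs were in a single nucleus, and in rep138 10 of 17 were. The order of the groups in mural-like nuclei thus leans on single nuclei. Neither the mural-like difference nor the difference between the classes was tested.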

How the results depend on the processing

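Of the counts of members called, 148 alternatives stayed within 1.5 times the main count and 21 moved. Many main counts were 0, and a 0 that stayed 0 is among the 148, so that number does not measure how firm the calls are. Of single-member results outside the leave-one-out fits 213 held, 12 moved in size, 7 reversed, 7 lost and 7 gained a call. With library totals as the only scaling, called members over all nuclei went from 2 to 4 with diet and from 3 to 6 in the TertCi mice. Of 21101 genes, 8193 and 8155 were called in these comparisons with that scaling, against 8595 and 7500 in the main fit. Without the filter on low counts, Tert against TertCi had 1 called member over all nuclei, where the main fit had none. Which member it was and the share of all genes called in that fit are not given, so this count is a description. With 1000 UMIs as the limit of a nucleus in every library, macrophage-like nuclei had 4 of 9 with diet, where 33.5% of all genes were called against 21.1% in the main fit. With that limit perivascular macrophage-like nuclei had 2 with diet and 2 in the TertCi mice, and lipid-associated macrophage-like nuclei 2 in the TertCi mice. For these 2 classes and for the counts below, the share of all genes called is not given, so the counts are a description. Adipocyte-like nuclei had 1 with diet and 1 in the TertCi mice where mixed clusters took their best class or nuclei were classed singly, and progenitor-like nuclei 1 in each of diet, the Tert mice and the TertCi mice with best classes (1 in the TertCi mice without the filter). Without the filter, perivascular macrophage-like nuclei had 1 with diet, 4 in the Tert mice and 4 in the TertCi mice; with doublets kept they had 2 in the TertCi mice, and lipid-associated macrophage-like nuclei 1 in the Tert mice and 1 in the TertCi group (rep138 alone). Leaving out each mouse, the counts ranged over 2 to 3, 1 to 3 and 2 to 3 (all nuclei: diet, the Tert mice, the TertCi mice), 0 to 1, 1 to 4 and 2 to 5 (macrophage-like), and 0 to 1, 1 throughout and 1 to 3 (perivascular macrophage-like). Tnf in the Tert mice lost its call in macrophage-like nuclei with DESeq2 (-1.61, adjusted p = 0.133) and at 1000 UMIs (-1.21, adjusted p = 0.0773 by edgeR).

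These signs reversed, none of them called in the main edgeR fit. Il1rl1 became -0.062 over all nuclei in Tert against TertCi at 1000 UMIs, and 0.0303 in macrophage-like nuclei with diet where nuclei were classed singly. In lipid-associated macrophage-like nuclei, Il1rn in the Tert mice became -0.66 at 1000 UMIs, -0.13 with doublets kept and -0.84 without rep134 (up to 0.619 on leaving out another mouse). Il1rl1 there became 0.83 at 1000 UMIs and 1.19 with doublets kept in the TertCi mice, -0.17 at 1000 UMIs in Tert against TertCi, and -10.4 (the Tert mice) and -9.48 (Tert against TertCi) without rep134, where other mice left out gave up to 0.876 and 1.8. The cause was not tested.

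Scaling by library totals shifted the median of all genes from 0.05, -0.05 and -0.10 to 0.51, -0.39 and -0.58 over all nuclei (diet, the Tert mice, the TertCi mice), and to 0.26, -0.17 and -0.23 in macrophage-like nuclei. The share of calls that were higher went from 54.6%, 50.1% and 45.4% to 79.8%, 26.9% and 18.8% over all nuclei, from 61.3%, 30.2% and 38.7% to 84.1%, 12.9% and 8.83% in adipocyte-like, from 64.2%, 27.5% and 34.3% to 82.9%, 15.7% and 15.8% in progenitor-like, and from 57.5%, 30.9% and 38.6% to 73.2%, 24.0% and 26.9% in perivascular macrophage-like nuclei. No paired analysis was possible because the groups share no replicate number. In simulated counts of the diet comparison in macrophage-like nuclei, a 2-fold change was rarely called. Those counts had the same set spread for every gene and few changed genes. The rate therefore does not carry over to other comparisons or classes.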
